A study of Mus musculus with 20 samples.

Results

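Gene expression of the mouse liver cancer line p19/Nras was compared by RNA-seq in cells that carried the empty Ctrl vector (pWZL) and either a control guide (Trim33-WT) or a guide against Trim33 (the Trim33-KO lines KO1 and KO2). The members are the 6 libraries of these 3 lines with the Ctrl vector, 2 per line, of 20 in the series. All 13107 genes of the deposited table were compared, with KO1 and KO2 averaged and the agreement of both lines reported. Every cell was untreated and lacked the tumor suppressor p19/Arf, since the line comes from a tumor driven by Nras in p19/Arf-null mice, so WT in a name refers to Trim33 alone. The remaining libraries carry a Myc vector or belong to a separate experiment with hydroxyurea (HU, which blocks the making of DNA building blocks), and only its 4 untreated libraries are used for comparison. There was 1 Trim33-WT line, and whether a KO line is 1 clone or a pool is not given in the sources used here. A difference between Trim33-WT and Trim33-KO therefore cannot be told apart from a difference between 1 line and 2 others. The labels do not say whether the replicates of a line were separate cultures, and the study speaks of independent experiments without giving what they are, so p-values measure the spread between these libraries, which may be technical.

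Trim33 (also called TIF1gamma) belongs to the tripartite motif family of E3 ubiquitin ligases, with a RING finger that transfers ubiquitin and a PHD finger and bromodomain that read histone tails. It is known as a modulator of TGF-beta signaling, where it can ubiquitinate Smad4 or form its own complex with Smad2 and Smad3. Its relatives Trim24 and Trim28 act as transcriptional co-regulators. E2f factors, which control genes of S phase, are relevant here because the series concerns Trim33 and E2f4 in DNA replication.

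The 6 libraries held from 14753177 to 15269111 counts each, and the 10 genes with most counts took 3.87% to 4.54% of them, so these totals hardly differed between lines. The depositors named the counts as normalized, so the totals may not give the sequencing depth. The markers that define hepatocytes (Alb, Apoa1, Hnf4a, Ttr) and endothelium (Pecam1, Cdh5) were not among the 13107 genes tested. Of the biliary type Krt19 and Sox9 were tested and Krt7 and Epcam were not. Of leukocytes Cd68 was tested and Ptprc, Csf1r and Cd3e were not. Of stellate cells and fibroblasts Pdgfrb, Des and Col1a1 were all tested. Of 37 hepatocyte markers 7 were tested, Foxa1 and Afp among them. In each library their summed level was between 61.6 and 79.4 CPM (counts scaled to a common library total, with TMM normalization). Summed levels of 8 stellate and fibroblast markers were 315 and 320 CPM for Trim33-WT, 861 and 941 for KO1 and 287 and 307 for KO2, and Col3a1 led that list.

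Trim33 transcripts were lower in both KO lines but far from absent. The gene lies on chromosome 3 (mm9, chr3:103083216-103162691, plus strand). Its counts were 3476 and 3776 for Trim33-WT, 1855 and 1984 for KO1, and 3076 and 3179 for KO2. This corresponds to 246 and 258 CPM in Trim33-WT, 123 and 130.4 CPM in KO1 and 201 and 207 CPM in KO2. All 4 KO libraries lay below both WT libraries, KO1 by more than KO2. In edgeR's quasi-likelihood test with Benjamini-Hochberg adjustment over all genes (p adj throughout) the KO mean fell by 0.65 on the log2 scale (SE 0.058, p adj = 5.66e-08). The log2FC was -0.99 for KO1 and -0.31 for KO2. A count of transcripts does not read a frameshift or the protein. In the libraries labelled KO1 with the Myc vector, Trim33 stood at 185 and 192 CPM against 131 and 155 in the Myc libraries labelled WT, which goes against the labels. The difference of the KO1 effect between the vectors was 1.39 (p adj = 1.12e-08), and that of KO2 was 0.11 (p adj = 0.396). Myc libraries entered the fit here to estimate the spread, and leaving them out gave 8149 called genes where the fit with them gave 7277.

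At an adjusted p below 0.01, 7277 of 13107 genes (55.5%) differed between the KO mean and Trim33-WT, 3407 higher (26%) and 3870 lower (29.5%). KO1 differed from Trim33-WT at 6842 genes (52.2%) and KO2 at 6545 (49.9%). Both lines were called in the same direction at 5091 genes (38.8%), of which 2369 (18.1%) rose and 2722 (20.8%) fell, and in opposite directions at 108 (0.824%). The comparisons share both Trim33-WT libraries, so this agreement is in part built in. At each of the 5091 genes the 4 KO libraries lay on 1 side of both WT libraries, as they did at 66.4% of all genes tested (above at 32.2%, below at 34.2%). Most changes were small, with a median absolute log2FC of 0.70 over the 5091 and an absolute log2FC of 1 or more at 25.3% of the 7277. KO1 and KO2 themselves differed at 2398 genes (18.3%), with KO2 higher at 1092 (8.33%) and lower at 1306 (9.96%), by a median absolute log2FC of 0.56. When the line rather than the library was the unit, 0 genes passed at the adjusted threshold in edgeR and 3661 of 13056 (28%) had an unadjusted p below 0.05. DESeq2, run with the library as the unit, called 6568. Calls below hold for the library as the unit. Since these are bulk libraries, fewer cells of a type and less RNA per cell cannot be told apart.

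**Figure D1:**
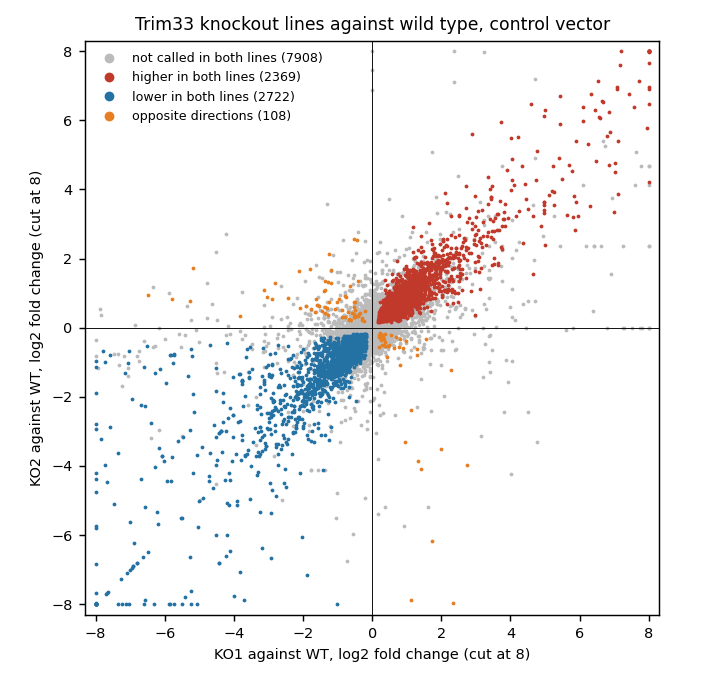
Each point is 1 of the 13107 genes, with the log2FC of KO1 against Trim33-WT on the horizontal axis and that of KO2 on the vertical axis, and values beyond the axes drawn at their edge. The 2369 genes higher (red) and 2722 genes lower (blue) in both lines follow the diagonal and include genes far from it, 108 genes (orange) lie in opposite quadrants, and both axes share the same 2 Trim33-WT libraries.

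Gene lists written from textbook knowledge moved by different amounts. Among the lists of 20 or more measured genes, those with most members lower in both lines were amino acid supply, the integrated stress response and the tRNA synthetases, and those with most members higher were cholesterol synthesis, the DNA polymerases and G2/M genes. They are described by the number of measured members called in both lines and by the median log2FC of the KO mean, beside 18.1% higher, 20.8% lower and a median of -0.01 over all genes tested.

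**Figure D2:**
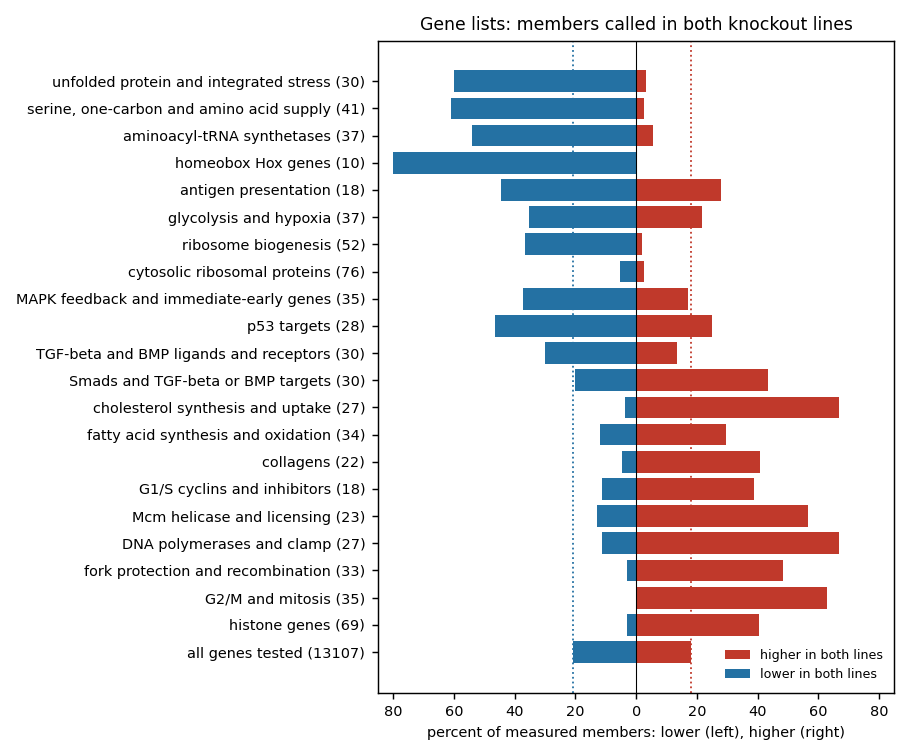
Bars give the percent of the measured members of the gene lists drawn (number in brackets) that were called lower (blue, left) or higher (red, right) in both Trim33-KO lines, and dotted lines mark all genes tested, 20.8% and 18.1%. The Hox list, of 10 genes at low level, reaches furthest to the left, followed by the amino acid, stress and synthetase lists, and cholesterol synthesis, the DNA polymerases and G2/M genes furthest to the right.

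Most genes of the integrated stress response were lower in both Trim33-KO lines than in Trim33-WT. In this pathway kinases that sense amino acid shortage, unfolded protein or other stress phosphorylate eIF2alpha, overall translation slows, and the mRNA of the transcription factor Atf4 is translated more. Atf4 then switches on genes for amino acid synthesis and uptake, tRNA charging and, if stress lasts, the pro-apoptotic factor Ddit3 (Chop). Of 30 genes of this response and of the unfolded protein response, 18 fell in both lines, 1 rose and 3 moved in opposite directions, with a median log2FC of -1.06. The 11 members of the integrated stress arm held 10 of these falls (median -2.60), and the 19 of endoplasmic reticulum folding and others held 8 falls and 1 rise (median -0.14). This division was made after the values were seen.

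Many Atf4 targets carry a C/EBP-ATF response element (CARE), and the letters TGATGCAA or their reverse complement were looked for in the 300 bases around each annotated start (RefSeq, GRCm38.p6). They were found in 0.756% of 12439 such windows of all genes tested, 0.302% of windows of genes higher and 1.56% of those of genes lower in both lines. The share was 13.8% in the stress list, 11.1% in amino acid supply and 14.3% in the tRNA synthetases, whose members with a match included Atf3, Chac1, Slc7a11 and Aars. Below are their upstream stretches, 5′ to 3′ on the strand of the gene, with the element in capitals; the 4 genes all fell and their elements stand at different distances from the start.
Chac1, chr2:119351009-119351096, plus strand: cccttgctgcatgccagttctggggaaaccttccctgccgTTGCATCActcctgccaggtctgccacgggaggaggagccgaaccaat
Atf3, chr1:191183396-191183483, minus strand: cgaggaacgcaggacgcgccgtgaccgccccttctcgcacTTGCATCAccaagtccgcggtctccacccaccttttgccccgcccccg
Slc7a11, chr3:50443632-50443719, minus strand: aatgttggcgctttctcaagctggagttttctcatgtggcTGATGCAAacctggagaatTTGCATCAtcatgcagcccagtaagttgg
Aars, chr8:111033690-111033777, plus strand: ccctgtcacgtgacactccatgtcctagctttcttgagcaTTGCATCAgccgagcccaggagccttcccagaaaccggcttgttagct

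Atf4 itself, the transcription factor at the head of the pathway, was measured at 1230 and 1191 CPM in Trim33-WT, 373 and 352 CPM in KO1 and 339 and 336 CPM in KO2 (log2FC -1.79, SE 0.067, p adj = 1.34e-12). Ddit3, the factor tied to stress-induced death, was at 71.3 and 71.2 CPM in Trim33-WT, 13.1 and 11.96 CPM in KO1 and 7.18 and 7.22 CPM in KO2 (log2FC -2.91, SE 0.17, p adj = 3.03e-10). Atf3, an early stress factor of the same bZIP class, read 130.4 and 128 CPM in Trim33-WT, 24.4 and 19.3 CPM in KO1 and 22.01 and 19.5 CPM in KO2 (log2FC -2.60, SE 0.16, p adj = 7.3e-10). For each of them all KO libraries lay below both WT libraries, and at Ddit3 those of KO2 lay below those of KO1. Trib3, a pseudokinase that feeds back on Atf4, fell from 265 and 267 CPM to at most 14.5 CPM in any KO library (log2FC -4.33, SE 0.15, p adj = 6.13e-13). Ppp1r15a (Gadd34), the phosphatase subunit that ends the response, was at 565 and 625 CPM in Trim33-WT, 34.5 and 32.9 CPM in KO1 and 31.8 and 32.3 CPM in KO2 (log2FC -4.18, SE 0.16, p adj = 1.67e-12). Chac1, which degrades glutathione, and Asns, asparagine synthetase, fell with a log2FC of -3.11 (p adj = 4.95e-13) and -2.95 (p adj = 1.46e-13), and Atf5, another translationally controlled factor, with -2.57 (p adj = 6.84e-12). The lines were close to each other at Atf4 (log2FC -1.74 in KO1 and -1.84 in KO2), Atf3 (-2.56 in KO1 and -2.63 in KO2), Chac1 (-3.12 in KO1 and -3.10 in KO2) and Asns (-2.96 in KO1 and -2.94 in KO2).

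Genes of the endoplasmic reticulum went several ways. Hspa5 (BiP), the main chaperone of that compartment, was at 2901 and 2840 CPM in Trim33-WT, 1451 and 1400 CPM in KO1 and 1079 and 1093 CPM in KO2 (log2FC -1.21, SE 0.061, p adj = 5.78e-11). Xbp1, the factor whose mRNA Ern1 splices, fell too (log2FC -0.92, SE 0.066, p adj = 4.38e-09). Atf6, a membrane-bound sensor, was at 558 and 634 CPM in Trim33-WT, 193 and 197 CPM in KO1 and 129 and 137 CPM in KO2 (log2FC -1.89, SE 0.06, p adj = 2.06e-13). Sdf2l1, an Hspa5 cofactor, was the only member that rose in both lines, from 6.36 and 7.31 CPM to 31.4 and 37.8 in KO1 and 16.7 and 18.5 in KO2 (log2FC 1.85, SE 0.12, p adj = 6.91e-10). Hsp90b1 (Grp94) was 0.37 in KO1 and -0.42 in KO2 on the log2 scale, opposite directions that both passed. Calr, calreticulin, had log2FC 0.39 in KO1 and -0.03 in KO2 (p adj = 3.86e-05 and 0.68, KO2 against KO1 log2FC -0.42, p adj = 6.95e-05).

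Most genes that make and import amino acids were lower too. Of 41 genes of serine, one-carbon and amino acid supply, 25 fell in both lines and 1 rose (median log2FC -0.95). Enzymes of the serine branch were lower, Phgdh at 592 and 579 CPM in Trim33-WT, 280 and 272 CPM in KO1 and 296 and 274 CPM in KO2 (log2FC -1.06, SE 0.069, p adj = 1.08e-09). Psph, its last step, was at 208 and 209 CPM in Trim33-WT, 35.9 and 33.7 CPM in KO1 and 30.7 and 33.05 CPM in KO2 (log2FC -2.64, SE 0.11, p adj = 5.28e-12). In the mitochondrial one-carbon branch Shmt2 and Mthfd2 fell with a log2FC of -1.79 and -2.12 and Aldh1l2 with -4.58, from 305 and 349 CPM to at most 15.7 CPM. Cth, cystathionine gamma-lyase, which makes cysteine, was among the deepest falls of the table with 200.3 and 204 CPM in Trim33-WT, 4.59 and 4.21 CPM in KO1 and 4.70 and 4.10 CPM in KO2 (log2FC -5.52, SE 0.17, p adj = 1.43e-13). The cytosolic enzyme Mthfd1 was the member that rose (log2FC 0.46, SE 0.056, p adj = 2.18e-06). Transporters fell as well. Slc7a5, the light chain of the large neutral amino acid carrier, was at 664 and 654 CPM in Trim33-WT, 119 and 116 CPM in KO1 and 170.3 and 176 CPM in KO2 (log2FC -2.21, SE 0.057, p adj = 2.2e-14). Its heavy chain Slc3a2 had a log2FC of -1.93 (p adj = 1.18e-11). Slc7a11, the cystine importer, fell by less (log2FC -0.90, SE 0.058, p adj = 1.16e-09). Trim33-WT libraries were highest for each of these enzymes and carriers except Mthfd1.

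Aminoacyl-tRNA synthetases divided by compartment. Among 37, 20 fell in both lines and 2 rose (median log2FC -0.37). The 20 with symbols lacking the suffix 2, mostly cytosolic enzymes, held 16 falls and no rise (median -1.27), and the 17 with the suffix, mitochondrial enzymes, 4 falls and 2 rises (median -0.05), a division made after the values were seen. Wars, for tryptophan, was at 384 and 410.3 CPM in Trim33-WT, 82.97 and 83.2 CPM in KO1 and 82.2 and 81.2 CPM in KO2 (log2FC -2.27, SE 0.07, p adj = 1.46e-13). Sars, for serine, was at 980.1 and 976 CPM in Trim33-WT, 249.9 and 238 CPM in KO1 and 227 and 234 CPM in KO2 (log2FC -2.05, SE 0.077, p adj = 1.34e-12). Nars, for asparagine, fell with a log2FC of -1.86 (p adj = 9.4e-13). Both mitochondrial rises were of less than 1 log2 unit, Cars2 with 0.76 (p adj = 5.44e-06) and Hars2 with 0.70 (p adj = 8.73e-07).

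**Figure D3:**
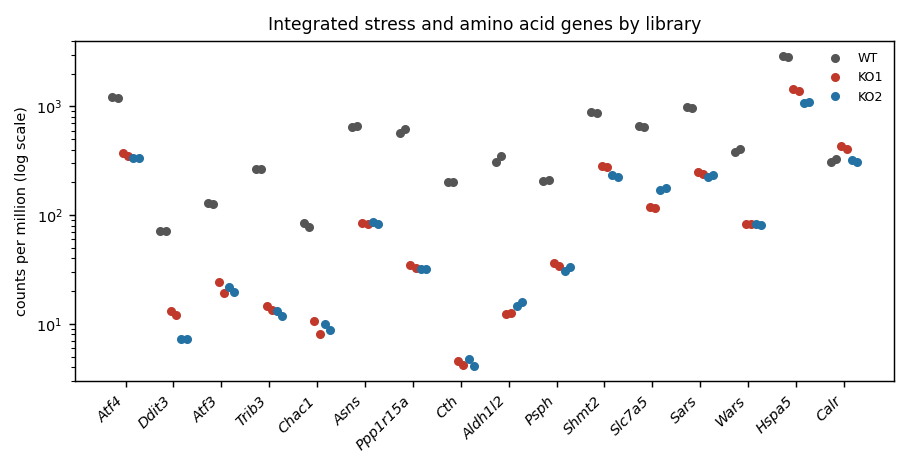
Levels of 16 stress and amino acid genes in each of the 6 libraries, in CPM on a log axis, with 1 point per library, colored by line (WT, KO1, KO2). At every gene except Calr both WT points lie above the 4 KO points, by the most at Cth, Aldh1l2, Trib3 and Ppp1r15a, and the KO1 and KO2 points nearly coincide at most genes.

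Many genes of DNA replication were higher in both Trim33-KO lines. At the start of S phase origins are licensed by the Orc, Cdc6 and Cdt1 proteins, which load the Mcm helicase, and the replicative polymerases then copy the DNA behind it. Of 23 Mcm and licensing genes 13 rose in both lines and 3 fell (median log2FC 0.69). Of 27 polymerase, clamp and Okazaki fragment genes 18 rose and 3 fell (median 0.59), and of 33 fork protection and recombination genes 16 rose and 1 fell (median 0.48). Among 26 genes of nucleotide supply 12 rose and 4 fell (median 0.25). The median of the Mcm list was 0.51 in KO1 and 0.80 in KO2.

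E2f sites are a common feature of such promoters. The 8-letter forms TTTCCCGC, TTTCGCGC, TTTGCCGC and TTTGGCGC, on either strand, were found in 4.00% of windows of all genes tested, in 6.29% of those of genes higher and 3.05% of those of genes lower in both lines. The share was 39.1% in the Mcm list, 28.6% in the polymerase list and 36.8% in the E2f and pocket protein list. Another element, the cell cycle gene homology region (CHR, TTTGAA on either strand), was found in 12.1% of all windows and in 74.2% of those of G2/M genes. Its share was 13.1% for genes higher and 10.7% for genes lower in both lines, near that of all windows. E2f forms also occur at genes that did not rise, among them Cdt1, which fell, and Rbl1, which did not pass. The CHR likewise occurs at Mcm2, which did not rise. Whether either element goes with the rise of single genes was not tested. Mcm5, Mcm6 and Pola1, with E2f forms, and Mki67 and Cdk1, with the CHR, were picked because they rose. Their upstream stretches are shown with the elements in capitals (GRCm38.p6, strand of the gene). Forms that overlap on the 2 strands appear as 1 run of capitals.
Mcm5, chr8:75109316-75109403, plus strand: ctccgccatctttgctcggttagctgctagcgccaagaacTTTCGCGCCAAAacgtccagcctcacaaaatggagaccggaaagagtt
Mcm6, chr1:128359768-128359855, minus strand: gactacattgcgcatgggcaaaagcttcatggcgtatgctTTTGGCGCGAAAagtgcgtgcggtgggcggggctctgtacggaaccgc
Pola1, chrX:93632246-93632333, minus strand: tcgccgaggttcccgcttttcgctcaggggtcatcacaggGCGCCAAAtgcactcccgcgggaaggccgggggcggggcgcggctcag
Mki67, chr7:135716450-135716535, minus strand: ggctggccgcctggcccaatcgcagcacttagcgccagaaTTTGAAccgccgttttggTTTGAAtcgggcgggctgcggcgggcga
Cdk1, chr10:69352938-69353023, minus strand: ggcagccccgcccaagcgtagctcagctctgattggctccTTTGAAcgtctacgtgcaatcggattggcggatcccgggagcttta

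Mcm5, a subunit of the helicase, was at 120.3 and 110.5 CPM in Trim33-WT, 159 and 169 CPM in KO1 and 211 and 213 CPM in KO2 (log2FC 0.69, SE 0.06, p adj = 3.7e-08). Mcm4, its partner, was at 104 and 95.9 CPM in Trim33-WT, 213 and 223 CPM in KO1 and 286 and 289 CPM in KO2 (log2FC 1.32, SE 0.073, p adj = 1.64e-10). Mcm2 did not follow: its log2FC was -0.30 in KO1 and -0.04 in KO2 (p adj = 0.000329 and 0.595, KO2 against KO1 log2FC 0.26, p adj = 0.00308). Of the loading factors Cdc6 rose (log2FC 1.14, SE 0.089, p adj = 1.12e-08). Cdt1 fell (log2FC -0.42, SE 0.052, p adj = 2.15e-06), as did the origin subunits Orc2 (-0.51, p adj = 7.81e-08) and Orc4 (-0.80, p adj = 1.27e-09). Licensing genes therefore did not move as a block. Pcna, the sliding clamp, was at 126 and 123 CPM in Trim33-WT, 166 and 166 CPM in KO1 and 200.2 and 202 CPM in KO2 (log2FC 0.55, SE 0.046, p adj = 2.32e-08). Dna2, a nuclease that trims Okazaki fragments, showed a wide rise from 3.08 and 3.18 CPM to between 11.95 and 14.7 CPM (log2FC 2.13, SE 0.16, p adj = 6.02e-09). In both lists most members rose by less than 1 log2 unit.

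Deoxynucleotide genes and the fork genes repeated that pattern with exceptions. Rrm2, the S phase subunit of ribonucleotide reductase, was at 80.05 and 72.5 CPM in Trim33-WT, 145 and 154 CPM in KO1 and 212 and 217 CPM in KO2 (log2FC 1.23, SE 0.074, p adj = 4.6e-10). Rrm2b, its p53-controlled counterpart, fell (log2FC -0.81, SE 0.077, p adj = 1.08e-07). Tk1, thymidine kinase, rose (log2FC 1.34, SE 0.068, p adj = 5.52e-11). Dut, which removes dUTP, fell (log2FC -0.86, SE 0.053, p adj = 6.58e-10). Brca1 and Rad54l, which act in homologous recombination, rose with a log2FC of 0.96 (p adj = 6.11e-07) and 1.32 (p adj = 8e-09). The helicase Recql, which the series studies with E2f4, was at 12.8 and 13.6 CPM in Trim33-WT, 15.3 and 16.96 CPM in KO1 and 16.8 and 16.5 CPM in KO2, a difference that did not pass (log2FC 0.31, SE 0.11, p adj = 0.0179). Its relative Recql4 fell (log2FC -1.01, SE 0.10, p adj = 2.6e-07).

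Of 19 E2f and pocket protein genes 8 rose in both lines and 1 fell (median log2FC 0.13). E2f1, an activator of S phase genes, was at 25.01 and 21.8 CPM in Trim33-WT, 40.1 and 42.9 CPM in KO1 and 54.7 and 54.6 CPM in KO2 (log2FC 1.03, SE 0.076, p adj = 5.96e-09). E2f7 and E2f8, atypical repressors of the same genes, rose with a log2FC of 1.69 (p adj = 2.13e-08) and 1.29 (p adj = 7.44e-08). E2f4 transcripts showed no difference that passed, with 75.04 and 79.4 CPM in Trim33-WT, 75.5 and 71.4 CPM in KO1 and 75.6 and 73.05 CPM in KO2 (log2FC -0.06, SE 0.059, p adj = 0.354). Rb1, the retinoblastoma protein, was the member that fell (log2FC -0.61, SE 0.097, p adj = 4.09e-05). Among 18 G1/S genes 7 rose and 2 fell (median 0.44). Ccne1 (cyclin E1) was at 6.85 and 8.07 CPM in Trim33-WT, 19.8 and 17.8 CPM in KO1 and 36.1 and 35.5 CPM in KO2 (log2FC 1.80, SE 0.11, p adj = 3.64e-10). Ccne2 was at 3.39 and 3.08 CPM in Trim33-WT, 12.1 and 14.2 CPM in KO1 and 14.6 and 16 CPM in KO2 (log2FC 2.13, SE 0.18, p adj = 2.34e-08). Ccnd2, cyclin D2, fell (log2FC -0.99, SE 0.051, p adj = 6.35e-11). The other fall was Cdkn1a, the p21 inhibitor, at 124 and 131 CPM in Trim33-WT, 51.2 and 52.8 CPM in KO1 and 66.4 and 65.8 CPM in KO2 (log2FC -1.12, SE 0.064, p adj = 2.49e-10).

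Most mitotic genes were higher as well. Of 35 G2/M and mitosis genes 22 rose in both lines and 0 fell (median log2FC 0.50, 0.40 in KO1 and 0.62 in KO2). In the KO mean 28 rose and 0 fell. Mki67, a marker of cycling cells, was at 247 and 225 CPM in Trim33-WT, 461 and 508 CPM in KO1 and 675 and 667 CPM in KO2 (log2FC 1.27, SE 0.086, p adj = 2.05e-09). Cdk1, the mitotic kinase, was at 134 and 123 CPM in Trim33-WT, 237 and 244 CPM in KO1 and 226 and 235 CPM in KO2 (log2FC 0.88, SE 0.051, p adj = 3.05e-10). Kif20a, a kinesin of the central spindle, had the widest rise named (log2FC 1.44, SE 0.068, p adj = 2.16e-11). At Mki67 the KO2 values lay above those of KO1, and at Cdk1 slightly below them. Uhrf1 and Dnmt1, which copy DNA methylation at the fork, rose with a log2FC of 1.62 (p adj = 2.73e-11) and 1.00 (p adj = 3.63e-10).

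A part of the histone genes was higher. Of 69, 28 rose in both lines and 2 fell (median log2FC 0.64), but 43 had a mean below 5 CPM, and copies of replication-dependent histones are near-identical, so reads may be split between them and single values are uncertain. Hist1h4i was at 5.51 and 4.24 CPM in Trim33-WT, 12.9 and 11.8 CPM in KO1 and 17.6 and 17.3 CPM in KO2 (log2FC 1.59, SE 0.13, p adj = 2.87e-08). The linker histone H1f0, which accumulates in cells that stop dividing, fell (log2FC -0.44, SE 0.067, p adj = 2.53e-05). H2afy2, a macroH2A variant, was at 0.353 and 0.273 CPM in Trim33-WT, 30.1 and 31.1 CPM in KO1 and 21.4 and 21.1 CPM in KO2, near absence in Trim33-WT and well above it in both lines (log2FC 6.32, SE 0.20, p adj = 2.18e-13). The steps of library preparation that decide how non-polyadenylated histone RNA is read are not detailed in the sources used here.

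**Figure D4:**
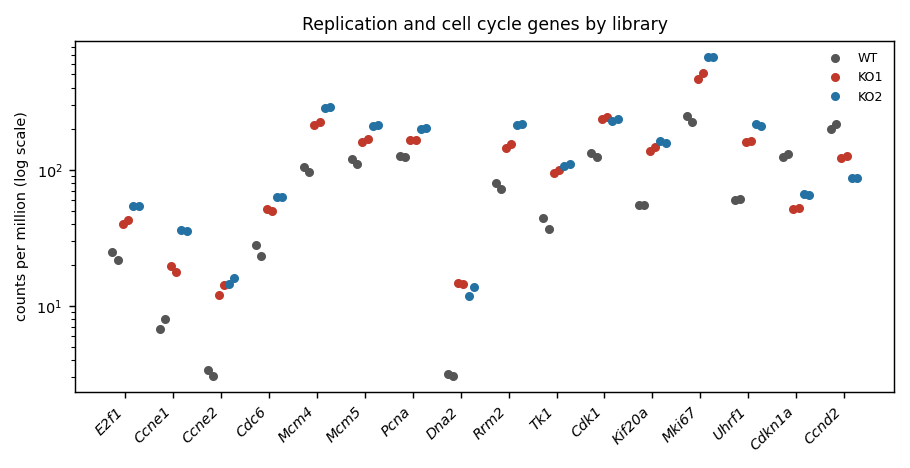
Levels of 16 replication and cell cycle genes in each of the 6 libraries, in CPM on a log axis, with 1 point per library, colored by line (WT, KO1, KO2). Cdkn1a and Ccnd2 at the right are the genes with both WT points on top, and at the other 14 genes both WT points lie below the 4 KO points.

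Most cholesterol synthesis genes were higher, and a smaller part of the fatty acid genes. Srebf2 is the factor that switches on this pathway when membrane sterol is low. Of 27 genes of cholesterol synthesis and uptake 18 rose in both lines and 1 fell (median log2FC 0.64). Idi1, an isomerase of the pathway, was at 66.1 and 60.1 CPM in Trim33-WT, 249.7 and 244 CPM in KO1 and 175 and 176 CPM in KO2 (log2FC 1.72, SE 0.088, p adj = 6.29e-11). Insig1, the sterol-sensing brake on the pathway, was at 215 and 202 CPM in Trim33-WT, 514 and 519.9 CPM in KO1 and 406 and 410.5 CPM in KO2 (log2FC 1.14, SE 0.075, p adj = 1.49e-09). The sterol response elements TCACCCCAC, TCACGCCAC, TCACACCAC and TCACTCCAC, on either strand, were in 0 of 27 windows of the list and in 1.10% of all windows. Those 27 windows belong to 19 of the 27 genes, so this says only that these letters are not in the windows searched. Srebf2 itself rose with a log2FC of 0.23 (p adj = 0.00142). Of 34 fatty acid genes 10 rose and 4 fell (median 0.17). Fasn, fatty acid synthase, was at 278 and 258 CPM in Trim33-WT, 682 and 706 CPM in KO1 and 650.2 and 663 CPM in KO2 (log2FC 1.33, SE 0.11, p adj = 1.31e-08). Elovl6 and Fads2, an elongase and a desaturase, had log2FC values of 1.42 (p adj = 1.48e-08) and 1.34 (p adj = 1.86e-10). Acsl4, which loads polyunsaturated fatty acids, fell (log2FC -1.04, SE 0.056, p adj = 1.13e-10). Fasn and both chain-modifying enzymes rose while the falls named were acyl-CoA synthetases, Acsl1 among them (log2FC -1.65, SE 0.13, p adj = 1.18e-08).

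Myc was lower, and so was a part of the genes of ribosome making. Myc, which with its partner activates growth genes, was at 433 and 439 CPM in Trim33-WT, 186 and 196 CPM in KO1 and 210.3 and 218 CPM in KO2 (log2FC -1.11, SE 0.047, p adj = 5.46e-12). Its partner Max fell (log2FC -0.56, SE 0.06, p adj = 4.42e-07). The antagonists Mxd3 and Mxd4 rose, Mxd3 from 1.16 and 1.27 CPM to between 8.08 and 10.4 CPM (log2FC 2.91, SE 0.19, p adj = 9.85e-10) and Mxd4 with 0.76 (p adj = 1.76e-05). Of the 11 measured genes of this network 2 rose and 3 fell in both lines. Of 52 ribosome biogenesis genes 19 fell and 1 rose (median log2FC -0.18), most by small amounts. The E-box CACGTG was in 17.0% of their windows and 9.79% of all windows. It was in 10.9% of windows of genes lower in both lines. Its share was 22.2% in the cholesterol list and 17.9% in the polymerase list, which rose. In the lists that fell it was 17.9% for the tRNA synthetases, 8.33% for amino acid supply and 6.9% for the stress list. These shares rest on few windows, and a link of the E-box to the changes was not tested. Nop14, of the small subunit processome, was at 255 and 263 CPM in Trim33-WT, 102 and 95.95 CPM in KO1 and 108 and 110.1 CPM in KO2 (log2FC -1.32, SE 0.058, p adj = 9.32e-12). Npm1, nucleophosmin, and Ncl, nucleolin, fell with a log2FC of -0.27 and -0.20 (p adj = 6.07e-05 and 0.000369), and Polr1b and Fbl did not pass (p adj = 0.1 and 0.167). Cytosolic ribosomal proteins mostly held their level, with 4 of 76 lower and 2 higher in both lines (median -0.07), shares under those of all genes tested.

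Genes around TGF-beta and BMP changed in both directions. Ligands bind receptor kinases, which phosphorylate Smad2/3 (TGF-beta) or Smad1/5 (BMP), and these join Smad4 to act in the nucleus. Of 30 measured ligands, receptors and antagonists 4 rose and 9 fell in both lines and 2 went opposite ways (median log2FC 0.09), and of 30 Smads and targets 13 rose and 6 fell (median 0.50). Grem1, a secreted BMP antagonist, was at 42.0 and 41.8 CPM in Trim33-WT and had 0 counts in all 4 KO libraries. With 3 counts over a group as the floor, that is a level lower by at least 203-fold (KO1) and 202-fold (KO2). Fstl1, another secreted modulator of BMP, was at 41.3 and 38.8 CPM in Trim33-WT, 0.931 and 1.12 CPM in KO1 and 0.522 and 0.260 CPM in KO2 (log2FC -5.96, SE 0.12, p adj = 1.99e-15). Id1 and Id3, inhibitors of differentiation that BMP induces, were both higher. Id1 was at 35.4 and 29.3 CPM in Trim33-WT, 55.6 and 61.05 CPM in KO1 and 74.5 and 72.2 CPM in KO2 (log2FC 1.02, SE 0.084, p adj = 2.08e-08). Its relative Id3 was at 20.9 and 15.4 CPM in Trim33-WT, 124 and 129 CPM in KO1 and 80.7 and 79.95 CPM in KO2 (log2FC 2.47, SE 0.088, p adj = 6.89e-13). Smad7 and Smad6, inhibitory Smads, rose with a log2FC of 0.57 (p adj = 2.18e-06) and 0.91 (p adj = 1.8e-05). Among the 6 members that fell were Tgif1 with a log2FC of -1.13 (p adj = 3.18e-10) and Smurf1 with -0.68 (p adj = 9.36e-09). The ligand Tgfb1 rose with a log2FC of 0.35 (p adj = 3.49e-05) and the receptor Tgfbr2 with 0.49 (p adj = 6.18e-07). Smad4 and Smad3, which Trim33 is known to act on as proteins, had transcripts with no difference that passed (log2FC -0.03 and -0.05, p adj = 0.559 and 0.367).

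Feedback genes of the Ras-MAPK cascade, which oncogenic Nras drives, were mixed. Of 35 genes 6 rose and 13 fell in both lines (median log2FC -0.14). Fos, an AP-1 subunit induced at once by growth factors, was at 14.7 and 14.8 CPM in Trim33-WT, 128 and 101 CPM in KO1 and 95.4 and 93.4 CPM in KO2 (log2FC 2.82, SE 0.13, p adj = 2.38e-11). Its partner Jun was at 62.6 and 62.5 CPM in Trim33-WT, 232 and 218 CPM in KO1 and 182 and 185 CPM in KO2 (log2FC 1.70, SE 0.051, p adj = 1.18e-13). Egr1 rose with a log2FC of 1.66 (p adj = 4.49e-13). Areg and Ereg, ligands of the EGF receptor, fell with a log2FC of -2.71 (p adj = 5.93e-11) and -1.12 (p adj = 9.87e-09). Dusp4, a phosphatase of Erk, was at 252 and 272 CPM in Trim33-WT, 57.7 and 67.8 CPM in KO1 and 81.3 and 83 CPM in KO2 (log2FC -1.87, SE 0.063, p adj = 4.09e-13). The same KO libraries were thus above Trim33-WT at Fos, Jun and Egr1 and below it at Areg, Ereg and Dusp4. Nras did not pass in the KO mean (log2FC 0.18, SE 0.059, p adj = 0.0125).

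In the TRIM family 7 of 36 genes rose and 9 fell in both lines (median log2FC 0.01). The relatives Trim24 and Trim28 rose by small amounts (log2FC 0.39, p adj = 2.12e-06, and 0.37, p adj = 1.82e-06). Trim35 had a wider fall, at 332 and 346 CPM in Trim33-WT, 131 and 128 CPM in KO1 and 148 and 149 CPM in KO2 (log2FC -1.29, SE 0.046, p adj = 6.63e-13). Of 28 p53 targets 7 rose and 13 fell (median -0.15). Gadd45a, which Atf4 also induces, was at 135 and 145 CPM in Trim33-WT, 30.4 and 32.7 CPM in KO1 and 24.1 and 22.8 CPM in KO2 (log2FC -2.36, SE 0.12, p adj = 4.86e-11), and Btg2 rose (log2FC 1.04, SE 0.073, p adj = 3.31e-09). Sesn2, a sensor of leucine, fell with a log2FC of -2.37 (p adj = 2.06e-13) and its relative Sesn1 rose with a log2FC of 1.13 (p adj = 5.46e-06).

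Among inflammatory genes Ptgs2 (cyclooxygenase 2) was at 2720 and 2757 CPM in Trim33-WT, 765 and 746 CPM in KO1 and 801 and 699 CPM in KO2 (log2FC -1.86, SE 0.079, p adj = 5.46e-12). Csf2 (GM-CSF), a growth factor of myeloid cells, was at 182 and 182 CPM in Trim33-WT, 8.65 and 9.33 CPM in KO1 and 14.96 and 15.2 CPM in KO2 (log2FC -3.97, SE 0.12, p adj = 1.18e-13). The chemokines Ccl2 and Ccl7 rose, Ccl2 with 52.99 and 45.8 CPM in Trim33-WT, 141 and 155 CPM in KO1 and 76.9 and 72.1 CPM in KO2 (log2FC 1.09, SE 0.073, p adj = 1.83e-09). Of 35 TNF and NF-kB genes 7 rose and 11 fell in both lines (median log2FC 0.00), and of 18 antigen presentation genes 5 rose and 8 fell (median -0.65). H2-K1 and H2-D1, classical MHC class I heavy chains, fell with a log2FC of -2.04 (p adj = 1.19e-12) and -1.69 (p adj = 1.78e-12). Tapbp, which helps to load their peptides, rose (log2FC 0.73, SE 0.089, p adj = 1.94e-06). MHC genes are near-copies of each other, so their single values are uncertain. Of 37 genes of glycolysis and hypoxia 8 rose and 13 fell (median -0.04). Ndrg1, a hypoxia-linked gene, was at 464 and 484 CPM in Trim33-WT, 79.05 and 76.8 CPM in KO1 and 67.5 and 70.8 CPM in KO2 (log2FC -2.69, SE 0.064, p adj = 9.99e-15). Ero1l, an oxidase of the endoplasmic reticulum, had a log2FC of -3.16 (p adj = 1.61e-14) and Vegfa, which drives vessel growth, one of -1.25 (p adj = 5.28e-12). Pfkfb4, a regulator of glycolysis, rose (log2FC 1.86, SE 0.18, p adj = 1.39e-07), as did Pdk3, a kinase of pyruvate dehydrogenase (log2FC 0.79, SE 0.096, p adj = 1.91e-06).

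Markers of the biliary and progenitor state went both ways. Of 13 tested 4 rose and 4 fell in both lines (median log2FC -0.06). Krt19, the keratin of bile duct cells, was at 414 and 396 CPM in Trim33-WT, 48.6 and 46.8 CPM in KO1 and 112 and 119 CPM in KO2 (log2FC -2.45, SE 0.072, p adj = 9.61e-14). Sox9, the factor that marks biliary and progenitor cells, was at 188 and 200 CPM in Trim33-WT, 59.8 and 55.3 CPM in KO1 and 50.9 and 49.5 CPM in KO2 (log2FC -1.85, SE 0.065, p adj = 5.97e-13). Afp, the fetal liver protein, was at 33 and 30.2 CPM in Trim33-WT, 0.798 and 0.920 CPM in KO1 and 8.56 and 8.13 CPM in KO2 (log2FC -3.55, SE 0.14, p adj = 2.2e-12). The lines differed there (KO2 against KO1 log2FC 3.27, p adj = 7.49e-08). Krt18 fell with a log2FC of -0.41 (p adj = 5.49e-06) and Krt8 did not pass (p adj = 0.282). Bicc1, an RNA-binding protein, was at 0 and 0.0684 CPM in Trim33-WT, 18.3 and 14.98 CPM in KO1 and 0.719 and 0.846 CPM in KO2, higher by at least 82.8-fold in KO1 and by at least 3.97-fold in KO2. Onecut2, a liver and bile duct factor, rose (log2FC 0.69, SE 0.075, p adj = 5.52e-07), as did Cd24a, a surface protein (log2FC 0.41, SE 0.056, p adj = 7.75e-06). Among the hepatocyte markers Foxa1, which opens liver chromatin, rose (log2FC 0.56, SE 0.072, p adj = 3.76e-06). The 13 markers of this type summed to 7084 and 7259 CPM in Trim33-WT and to between 5765 and 5876 CPM in the KO libraries, a sum led by Spp1, Krt8 and Krt18.

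Matrix genes divided the KO lines. Of 22 collagens 9 rose in both lines, 1 fell and 1 went opposite ways, with a median log2FC of 0.86 in KO1 and -0.03 in KO2. Col3a1, a fibrillar collagen, was at 6.22 and 5.54 CPM in Trim33-WT, 370.2 and 318 CPM in KO1 and 44.6 and 38.6 CPM in KO2 (log2FC 4.35, SE 0.13, p adj = 8.98e-14). Col1a1 was at 29.5 and 29.8 CPM in Trim33-WT, 87.7 and 85.04 CPM in KO1 and 24.7 and 22.2 CPM in KO2 (log2FC 1.54 in KO1 and -0.34 in KO2, both past the threshold). Col1a2 passed in KO2 and not in KO1 (log2FC 0.12 in KO1 and -3.03 in KO2, p adj = 0.112 and 4.21e-14, KO2 against KO1 log2FC -3.15, p adj = 2.2e-14). Fn1, fibronectin, had log2FC 0.42 in KO1 and -0.84 in KO2, again opposite and called in both. Pdgfrb, a receptor of mesenchymal cells, was higher in both lines at 16.2 and 16.9 CPM in Trim33-WT, 191 and 168 CPM in KO1 and 106 and 98.1 CPM in KO2 (log2FC 3.03, SE 0.078, p adj = 2.19e-14). Thbs1, a matrix protein that activates latent TGF-beta, rose to a like level in both (log2FC 1.83, SE 0.086, p adj = 1.99e-11). Vim, vimentin, passed in KO1 and not in KO2 (log2FC 0.30 in KO1 and 0.12 in KO2, p adj = 0.000117 and 0.0518, KO2 against KO1 log2FC -0.17, p adj = 0.0202). These collagens and Pdgfrb are themselves members of the stellate and fibroblast list, whose sum moved with them in KO1, while Des, another marker of that list, went the other way in KO1. It was at 2.12 and 3.08 CPM in Trim33-WT, 0 and 0.0657 CPM in KO1 and 2.29 and 1.82 CPM in KO2, lower by at least 12.6-fold in KO1, and KO2 did not pass (p adj = 0.271). The part of other cells in this result was not tested.

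The widest rises in both lines were taken among genes of at least 10 CPM on average over the 6 libraries. A low level in Trim33-WT follows in part from this choice, since genes low there reached 10 CPM through their KO libraries. Gas6, a ligand of the Axl family of receptors, was at 0.0707 and 0.342 CPM in Trim33-WT, 20.7 and 22.7 CPM in KO1 and 21.2 and 19.7 CPM in KO2 (log2FC 6.61, SE 0.23, p adj = 6.49e-13). Tnfrsf26, of the TNF receptor family, was at 1.20 and 0.957 CPM in Trim33-WT, 106 and 100 CPM in KO1 and 73.5 and 75.5 CPM in KO2 (log2FC 6.33, SE 0.11, p adj = 1.08e-15). Sprr1b, a cornified envelope protein whose family holds near-copies, was at 2.97 and 2.32 CPM in Trim33-WT, 87.03 and 80.6 CPM in KO1 and 185 and 181 CPM in KO2 (log2FC 5.55, SE 0.13, p adj = 1.28e-14). In each case WT libraries were at most 2.97 CPM and KO libraries at least 19.7 CPM. Further rises were those of Map2, a microtubule protein of neurons (log2FC 5.21, p adj = 5.61e-13), Uchl1, a ubiquitin hydrolase (4.58, p adj = 4.77e-12), Abcg2, a drug efflux pump (4.47, p adj = 3.51e-12), and Prkcb, a protein kinase C (4.23, p adj = 6.61e-12). Also higher were Dab2, an endocytic adaptor (log2FC 4.19, p adj = 6.39e-13), Blnk, an adaptor of B cell signaling (4.17, p adj = 1.45e-15), and Aif1l, an actin-binding protein (4.08, p adj = 2.05e-12). Slc5a7, the choline transporter, Gulp1, an engulfment adaptor, and Gm364 rose with a log2FC of 5.77, 4.92 and 4.84, with p adj of 1.33e-10, 2.06e-13 and 1.94e-14.

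The deepest falls among such genes included Erfe, erythroferrone, at 52.4 and 43.1 CPM in Trim33-WT, 0.599 and 0.394 CPM in KO1 and 0.131 and 0.260 CPM in KO2 (log2FC -7.22, SE 0.17, p adj = 8.04e-15). Gdf15, a secreted stress cytokine that integrated stress also induces, was at 861 and 846 CPM in Trim33-WT, 32.7 and 33.1 CPM in KO1 and 69.5 and 67.3 CPM in KO2 (log2FC -4.17, SE 0.10, p adj = 1.93e-14). Mst1, the macrophage-stimulating ligand, was at 38.2 and 38.3 CPM in Trim33-WT, 1.80 and 1.58 CPM in KO1 and 2.55 and 2.86 CPM in KO2 (log2FC -4.16, SE 0.14, p adj = 4.42e-13). Ddr2, a collagen receptor, was at 80.9 and 86.8 CPM in Trim33-WT, 7.05 and 7.36 CPM in KO1 and 2.55 and 2.86 CPM in KO2 (log2FC -4.24, SE 0.085, p adj = 1.57e-15). These genes were high in Trim33-WT and low in both lines, which follows in part from choosing the deepest falls. Fmnl2, a formin, fell with a log2FC of -3.61 (p adj = 4.07e-14), AI662270 with -4.39 (p adj = 2.19e-14) and Xlr3c, of an X-linked family of near-copies, with -3.59 (p adj = 2.19e-14). Plb1 and Naip1 met the same rule mainly through KO1. Plb1, a phospholipase, was at 146 and 164 CPM in Trim33-WT, 0.532 and 0.657 CPM in KO1 and 69.8 and 72.6 CPM in KO2. Naip1, of a family of near-copies, had a log2FC of -7.03 for KO1 and -0.67 for KO2.

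Several genes were present in Trim33-WT and at or under 3 counts per library in 1 or both KO lines, or the reverse. Beside Grem1, Peg3, an imprinted zinc finger gene, stood at 59.7 and 54.01 CPM in Trim33-WT, 0.133 and 0 CPM in KO1 and 0.784 and 0.195 CPM in KO2, and KO1 was lower by at least 276-fold. Rin3 was at 17.4 and 21.9 CPM in Trim33-WT, 0.266 and 0.394 CPM in KO1 and 0 and 0 CPM in KO2, and KO2 was lower by at least 94.9-fold. For Slc9b1 KO1 was lower by at least 119-fold, whereas KO2 kept 9.50 and 10.4 CPM. Among those gained, Dntt, the terminal transferase of developing lymphocytes, was at 0 and 0.0684 CPM in Trim33-WT, 25.3 and 25.6 CPM in KO1 and 19.9 and 22.4 CPM in KO2. KO1 was higher by at least 127-fold and KO2 by at least 107-fold. It leads the list of lymphocyte and red cell markers, of which 4 of 20 were tested and which summed to 26.1 and 26.4 CPM in KO1 and 21.7 and 24.9 CPM in KO2. Nearly all of that sum is Dntt. Smpdl3b was at least 96.0-fold and 61.8-fold higher, Sod3 at least 117-fold and 10.3-fold, and Chst15 at least 46.6-fold and 64.9-fold, in KO1 and KO2.

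Changes of the most abundant genes were small. Hsp90ab1, the constitutive cytosolic chaperone, was at 4083 and 3918 CPM in Trim33-WT, 4722 and 4788 CPM in KO1 and 4583 and 4589 CPM in KO2 (log2FC 0.22, SE 0.041, p adj = 0.000146). Pabpc1, the poly(A)-binding protein, rose with a log2FC of 0.34 (p adj = 1.56e-06). Eif4g2 fell with a log2FC of -0.28 (p adj = 4.68e-05) and Gm12715 with -0.37 (p adj = 2.96e-06). Hsp90ab1 and Gm12715 can share reads with pseudogenes or copies. The 10 Hox genes measured formed the opposite extreme, with 8 lower in both lines with a median log2FC of -3.56. All had a mean below 5 CPM, and their summed level was 16.1 and 19.7 CPM for Trim33-WT, 5.39 and 6.38 for KO1 and 0.653 and 0.260 for KO2.

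Of the 108 genes called in opposite directions, 4 met the rule for naming. Nptx1, a neuronal pentraxin, was at 23.5 and 22.9 CPM in Trim33-WT, 110.1 and 114 CPM in KO1 and 10.3 and 9.37 CPM in KO2 (log2FC 2.27 in KO1 and -1.24 in KO2). Aqp8, a water channel, was at 6.92 and 4.38 CPM in Trim33-WT, 1.93 and 2.83 CPM in KO1 and 21.8 and 27.7 CPM in KO2 (log2FC -1.24 in KO1 and 2.13 in KO2). Eda2r, a TNF receptor and p53 target, was at 13.6 and 14.97 CPM in Trim33-WT, 6.19 and 5.72 CPM in KO1 and 35.5 and 35.9 CPM in KO2 (log2FC -1.26 in KO1 and 1.32 in KO2). Sprr2h, of the cornified envelope, had a log2FC of -1.38 for KO1 and 1.34 for KO2. Here the KO libraries of 1 line lie above and those of the other below Trim33-WT, so the averaged log2FC describes neither line.

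The HU experiment holds untreated Trim33-WT and Trim33-KO cells of the same parent line, with 2 libraries each and no library in common with the above. The titles of these libraries name no vector and do not say whether the Trim33-KO cells are KO1, KO2 or another line. The comparison is therefore not known to repeat the same lines. The table of the HU experiment was normalized and fitted separately, and its libraries hold 2315327 to 3082202 counts. Values are set side by side without a test of the difference between experiments. Trim33 was at 140 and 125 CPM in Trim33-WT and 50.8 and 43.8 in Trim33-KO there (log2FC -1.49, p adj = 3.48e-11), beside -0.65 with the Ctrl vector. Untreated Trim33-KO differed from Trim33-WT at 626 of 11210 genes (5.58%), 344 higher (3.07%) and 282 lower (2.52%). On simulated counts that fit recovered 70 of 100 genes with an absolute log2FC of 1 and 9 of 100 with 0.5. The fit of the Ctrl vector libraries recovered 95 and 74, so the numbers of calls are not comparable. Of the 4624 genes called in both lines with the Ctrl vector and measured there, 44.1% had the same sign. Genes higher in both lines had a median log2FC of -0.05 in that experiment, and those lower had 0.05. At an absolute log2FC of 1 or more the same sign was seen at 40.1% of 579 higher and 44.6% of 523 lower genes, and 50% of genes not called in both lines were positive.

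Several lists that moved with the Ctrl vector had medians near 0 in untreated cells of the HU experiment. The medians were 0.09 for the stress list, 0.06 for amino acid supply and -0.07 for the tRNA synthetases. They were 0.01 for the Mcm genes, -0.03 for the polymerases, 0.01 for G2/M genes and -0.04 for cholesterol synthesis. Other lists lay further from 0, collagens at -0.36 and ribosome biogenesis at 0.15, both opposite in sign to their median with the Ctrl vector. The Smads and TGF-beta or BMP targets kept their sign at 0.19. Of 26 of them measured there 5 were called higher and 0 lower, beside 3.07% and 2.52% of all genes. Atf4 had a log2FC of -0.11 (p adj = 0.584), Asns of 0.36 (p adj = 0.189) and Mcm5 of 0.03 (p adj = 0.907) there. None of these 3 passed at an adjusted p of 0.01. Cdkn1a, lower with the Ctrl vector, was higher there (0.79, p adj = 3.71e-05), and so were Ptgs2 (1.22, p adj = 3.67e-14) and Krt19 (0.69, p adj = 2.92e-05). Col3a1 was lower there (-4.76, p adj = 5.87e-14), the reverse of both lines with the Ctrl vector.

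Of 315 genes called in both lines and in the HU experiment, 115 had 1 direction in all, fewer than the 200 that did not. Genes higher and lower in both lines were called there at 7.03% and 6.62%, beside 4.65% of genes not called in both lines. The genes named in this paragraph were picked because they moved alike. Trim33 was among the 115. Id1 rose there with a log2FC of 1.01 (p adj = 5.09e-08), Trim24 with 1.34 (p adj = 2.27e-09), Blnk with 2.08 (p adj = 1.92e-14), Sprr1b with 1.36 (p adj = 2.53e-14) and Uchl1 with 3.94 (p adj = 4.36e-05). Sprr2k, another Sprr gene, was at 0.777 and 0.752 CPM in Trim33-WT, 7.98 and 7.82 CPM in KO1 and 14.6 and 17.3 CPM in KO2 with the Ctrl vector and rose with a log2FC of 4.42 (p adj = 2.45e-16) there. Dntt passed there too (p adj = 0.00724), as did Trpa1, a cation channel, and Mapkapk3, a kinase of the p38 pathway (p adj = 0.00239 and 0.00126). On the side of the falls, AI662270 had -2.53 there (p adj = 4.95e-20), and Plcg2, Nkx2-5, Parp12 and Il5ra passed as well (p adj = 7.76e-05, 0.000367, 0.000784 and 1.43e-09). With the Ctrl vector Plcg2, a phospholipase C of immune cells, stood at 18.7 and 18.1 CPM in Trim33-WT, and KO1 was lower by at least 89.3-fold and KO2 by at least 88.8-fold. The cardiac factor Nkx2-5 was at least 30.0-fold and 29.9-fold lower, and Parp12 at least 17.4-fold and 17.3-fold lower, in KO1 and KO2.

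**Figure D5:**
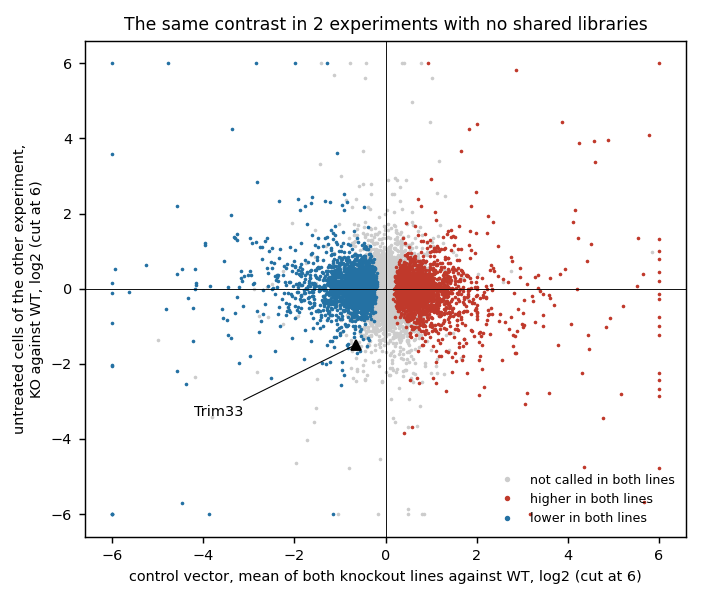
Each point is 1 gene measured in both experiments, with the log2FC of the KO mean against Trim33-WT with the Ctrl vector on the horizontal axis and that of untreated Trim33-KO against Trim33-WT in the HU experiment on the vertical axis, values beyond the axes drawn at their edge. Genes higher (red) or lower (blue) in both lines lie on both sides of 0 on the vertical axis, with 44.1% of 4624 in the quadrants of equal sign, and Trim33 (triangle) lies at -0.65 and -1.49.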

How the data were processed

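The authors mapped reads to mm9 with STAR 2.5.4 and used edgeR 3.26.8, per the labels, and deposited 2 tables of counts (whole reads per gene) with no further normalization detected; the counting tool is not given in the sources used here. Their 8 tables of fold changes, p-values and scores of their own tests were not used. Counts 1 to 50 of the HU table were even at 71.9%, against 48.4% in the other table. Here edgeR 4.0.16 and limma 3.58.1 (R 4.3.3) fitted TMM-normalized counts by quasi-likelihood, 1 coefficient per group, over the 12 libraries of the Ctrl and Myc vectors (13107 genes) and, separately, over the 8 of the HU experiment (11210 genes). The filter on low counts removed none, and 298 genes carry no symbol. P-values were adjusted over all genes (Benjamini-Hochberg), with a threshold of 0.01. SE is the absolute log2FC over the square root of F. Libraries of 14753177 to 15269111 counts gave variances between replicates of 2.21 to 3.13 times counting noise, and those with the Myc vector gave 3.98 to 11 times. On simulated counts 95 of 100 genes with an absolute log2FC of 1 and 74 of 100 with 0.5 were recovered for the KO mean, over 13107 genes. For the HU experiment, over 11210 genes, 70 of 100 and 9 of 100 were recovered. The simulation used a fixed spread for each experiment and no difference between KO1 and KO2. Promoter sequences come from RefSeq (GRCm38.p6), with windows for 9796 genes. DESeq2 1.42.0 was an alternative. Same-numbered replicates did not deviate together (correlations of -0.032 to 0.012), so the numbers do not pair the libraries. The lists and the members were chosen with earlier results of these data known. Named genes are the 15 widest rises and 15 widest falls in both lines at 10 CPM or more, genes absent in 1 genotype, the 2 most changed members of each list in each direction at 5 CPM or more, opposite and shared genes, and defining members of the lists. The pattern that collected the synthetases was corrected after it was seen to hold other genes. Columns of no sample numbered 0. Some genes that met these rules are not reported here.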

Additional observations from a re-analysis of the deposited data

Results flagged for a closer look

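The following genes were called in both Trim33-KO lines and the lines also differed from each other in edgeR's test of KO2 against KO1 (p adj below 0.01), by at least 2 log2 units or with opposite directions against Trim33-WT. Values are KO2 minus KO1, log2. KO2 was above KO1 at Plb1 (6.88), Naip1 (6.36), Zfp980 (4.96), Zfp600 (4.94), Aqp8 (3.37), Afp (3.27), Sprr2h (2.71), Eda2r (2.58), Gm364 (2.24) and Sox13 (2.19). KO2 was below KO1 at Wnt5a (-4.03), Nptx1 (-3.51), Col3a1 (-3.05), Gulp1 (-2.77), Slc5a7 (-2.52), Col1a1 (-1.88), Fn1 (-1.26) and Hsp90b1 (-0.79). Zfp980 and Zfp600 are zinc finger genes that may share reads, so their like values are not independent. Trim33 itself is listed because the KO1 effect with the Myc vector exceeded that with the Ctrl vector by 1.39 log2, in a test of the interaction (p adj = 1.12e-08). With the Myc vector its level in the libraries labelled KO1 was above that of the libraries labelled WT.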

How the results depend on the processing

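With the line as the unit, edgeR called 0 genes in the KO mean, 0 higher and 0 lower, and the smallest adjusted p was 0.0578. Every named gene called for the KO mean lost its call there. Requiring an absolute log2FC of 1 or more left 1841 genes (890 higher, 951 lower), 1259 in both lines (600 and 659) and 654 between KO2 and KO1. The 6 Ctrl vector libraries alone gave 3818 between the lines and 8149 for the KO mean, of which 7219 were shared. DESeq2 called 6568, of which 6554 were shared, and 396 in the HU experiment. Leaving out 1 library gave 5582 to 6651 calls for the KO mean, 3899 to 4382 in both lines, 1383 to 2186 between the lines (1383 and 1475 without KO1 replicate 1 and 2, 1452 and 1458 without KO2 replicate 1 and 2) and 337 to 459 in the HU experiment (337 without KO replicate 2). The replicate block, whose numbers do not pair the libraries, gave 7333 calls for the KO mean, 5178 in both lines, 2458 between the lines and 791 in the HU experiment. RLE normalization gave 7265, and a mean of at least 5 CPM 6228. Halving the HU counts, also chosen after seeing the data because most were even, gave 623 calls. None of the named genes changed direction under these settings, and 14 of 321 named values lost their call without some 1 library, Mcm2, Calr and Col1a1 among them. With the 6 Ctrl vector libraries alone 4 named values gained a call, Recql and Nras among them. Medians of 27 of the 52 lists with 5 or more members moved by more than 1 SD of the KO libraries in at least 1 setting: 10 relative to the median of the chromosome, 9 at a mean of at least 5 CPM, 9 and 8 without Trim33-WT replicate 1 and 2, 1 to 2 without a KO library and 3 with the line as the unit. Of these, 5 changed sign: interferon-stimulated genes (-0.25 to 0.44) and integrins (0.32 to -0.13) at a mean of at least 5 CPM, the TRIM family (0.01 to -0.05) without KO2 replicate 1, Notch (-0.11 to 0.01) without Trim33-WT replicate 2, and Hippo-Yap (-0.03 to 0.01) relative to the chromosome. Medians taken relative to each gene's chromosome, an alternative chosen after seeing the data, were -0.55 for the synthetases, 0.51 for histones, -0.95 for stress and 0.65 for Mcm genes. The cause of these shifts was not tested. The single Trim33-WT line, 2 libraries per line and p-values over libraries limit what is said of the genotype.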

Other observations

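Median log2FC differed by chromosome. With the Ctrl vector the medians of KO1 and KO2 were 0.21 and 0.19 on chromosome 18 (308 genes), 0.17 and 0.20 on chromosome 16 (376 genes), 0.13 and 0.18 on chromosome 13 (512 genes), and -0.23 and -0.15 on chromosome 2 (986 genes). On chromosome X KO1 had -0.20 and KO2 0.09 (428 genes), and on chromosome 10 they had 0.17 and -0.08 (585 genes). In untreated cells of the HU experiment the medians were -0.36 on chromosome 12 (369 genes), 0.29 on chromosome 7 (788 genes) and 0.23 on chromosome 17 (519 genes). On chromosome 2, 10.1% of genes rose and 31.4% fell in both lines, and on chromosome 18, 30.2% rose and 15.9% fell. What moves whole chromosomes was not tested.

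Calls were more frequent at well-read genes. In 4 equal groups of genes by mean CPM, from low to high, 39.1%, 56.4%, 62.1% and 64.5% were called for the KO mean, while an absolute log2FC of 1 or more was reached by 36.9%, 12.9%, 7.84% and 6.93%.

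Other lists are read beside 18.1% higher and 20.8% lower in both lines over all genes tested. Of 46 axon guidance genes 17 rose and 7 fell in both lines (median log2FC 0.34), Ephb6 and Epha7, ephrin receptors, among the rises with 3.46 (p adj = 1.82e-11) and 3.25 (p adj = 5.15e-10). Of 19 complement and coagulation genes 8 rose and 4 fell (median 0.67), with C3, the central complement protein, at 3.46 and 3.42 CPM in Trim33-WT, 36.7 and 38.8 CPM in KO1 and 13.3 and 10.8 CPM in KO2 (log2FC 2.63, SE 0.17, p adj = 1.02e-09). Of 78 mitochondrial ribosomal protein genes 12 rose and 23 fell (median -0.11), a share of falls above that of all genes and a share of rises below it. Of 77 respiratory chain genes 12 rose and 7 fell (median 0.00), both shares below those of all genes. In the Notch pathway Jag1, a ligand, was at 396 and 416 CPM in Trim33-WT, 66.01 and 63.02 CPM in KO1 and 83.2 and 94.6 CPM in KO2 (log2FC -2.42, SE 0.058, p adj = 1.09e-14), and 5 of 20 members rose and 7 fell in both lines. Of 24 Hippo-Yap factors and targets 3 rose and 6 fell, among them Ankrd1 (log2FC -1.66, p adj = 2.50e-12).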
